A study of Rattus norvegicus with 12 samples.

Results

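Stellate and other mesenchymal cells of the rat liver were studied as 1355 barcodes of 34344 that passed the filters, 1009 of 21819 cells and 346 of 12525 nuclei. The members were chosen by measured values, so the values that chose them are given as a description without a test. A barcode was a member when the unique molecular identifiers (UMIs, each counting 1 captured transcript) of Ecm1, Col3a1, Colec11, Pth1r, Angptl6, Igfbp3, Steap4 and Bgn summed to at least 5 and to at least 0.2% of its UMIs. The summed UMIs of the Kupffer cell genes Cd5l, Clec4f, Vsig4, C1qa, C1qb and C1qc had to stay under 0.3%. The rule held a barcode of 1000 UMIs to a higher share than one of 2000 UMIs, since 5 UMIs are 0.5% of the first and 0.25% of the second.

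The libraries came from livers of healthy male Dark Agouti (DA) and Lewis (LEW) rats, 2 inbred strains, with 2 rats per strain in each assay. Total liver homogenate (TLH) cells were freed by 2-step collagenase digestion and sequenced with 10x Genomics 3′ version 2 chemistry, and barcodes were kept at a minimum of 2000 UMIs and a maximum of 40% of UMIs from mitochondrial genes. Nuclei were extracted from snap-frozen pieces of liver and sequenced with version 3 chemistry (snRNA-seq), with limits of 1000 UMIs and 10%. For the TLH rats the labels give an age of 8 to 10 weeks and the study's text an older one, whereas the names of the TLH data put the DA rats at 10 weeks and the LEW rats at 13 weeks, so age and strain cannot be told apart in the cells. The labels speak of additional rats for the nuclei, but the names of the nuclei data carry the animal numbers of the cells, so whether rats are shared is not settled here. If they are, the 8 libraries of the fits over both assays are not independent. Libraries held 61441846 to 92484173 UMIs in the cells and 8039397 to 15186970 in the nuclei. Each library is 1 rat. In fits of members alone within 1 assay, p-values measure the spread between 2 rats per strain, moderated over all genes tested.

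Hepatic stellate cells lie in the space between the sinusoidal endothelium and the hepatocytes. In a healthy liver they store vitamin A as retinyl esters, which the enzyme Lrat makes, and they lay down and turn over the thin matrix of the sinusoid. They also secrete factors for hepatocytes and endothelium, such as the hepatocyte growth factor Hgf and the Wnt amplifier Rspo3. On injury they can become contractile, Acta2-positive myofibroblasts. Serum response factor (Srf) and the Yap and Tead factors are known to drive many genes of the cytoskeleton and matrix in mesenchymal cells, among them Fosb for the first and Ccn1 and Ccn2 for the second.

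Genes called lower in LEW than in DA in the mesenchymal nuclei, described further down, included Srf, Klf6, Ccn2 and Fosb. They were picked from the called genes, among which Aoc3 and Cyp4a2 had larger folds than Srf and Klf6. The promoters of the first 3 are shown because they hold motifs of the factors just named. They are 250 bases before the gene start from RefSeq on the build GRCr8, which differs from the build of the counts. Capitals mark CArG boxes, the element bound by Srf, in Srf (chr9:21923826-21924075, plus strand) and Klf6 (chr17:69458479-69458728, minus strand). In Ccn2 (chr1:22624615-22624864, minus strand) capitals mark GGAATG, the reverse complement of CATTCC, the core letters of a Tead element.
Srf: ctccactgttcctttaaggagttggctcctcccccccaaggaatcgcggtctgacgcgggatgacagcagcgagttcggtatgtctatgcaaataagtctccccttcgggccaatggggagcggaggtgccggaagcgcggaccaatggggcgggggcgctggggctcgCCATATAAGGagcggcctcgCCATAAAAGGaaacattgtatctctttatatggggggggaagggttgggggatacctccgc
Klf6: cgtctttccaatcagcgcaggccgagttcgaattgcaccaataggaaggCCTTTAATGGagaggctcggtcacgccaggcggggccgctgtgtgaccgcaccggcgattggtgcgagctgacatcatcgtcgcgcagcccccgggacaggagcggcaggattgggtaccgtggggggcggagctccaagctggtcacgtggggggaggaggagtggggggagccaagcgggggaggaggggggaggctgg
Ccn2: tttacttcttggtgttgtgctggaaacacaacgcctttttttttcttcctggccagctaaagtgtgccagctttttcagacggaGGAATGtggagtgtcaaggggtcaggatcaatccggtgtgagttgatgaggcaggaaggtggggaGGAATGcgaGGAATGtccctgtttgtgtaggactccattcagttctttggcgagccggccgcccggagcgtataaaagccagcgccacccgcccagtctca
Of 19 genes lower in LEW nuclei, 13 had a promoter in the table. CArG boxes, searched on both strands, were present in 2 of these, Srf with 2 matches and Klf6 with 1, and in 501 of 33469 promoters (1.5%). CATTCC was present on either strand in 2, Ccn2 with 3 matches and Mlc1, and in 4037 of all promoters (12.1%). The Fosb window (chr1:88089185-88089434, minus strand) held neither set of letters. A match describes the sequence only.

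The 8 genes of the rule were high in every library of members. Ecm1, a secreted matrix protein, was at 1735 and 2938 CPM, its UMIs per 1000000 UMIs of the members, in the DA cells and at 2623 and 2327 CPM in the LEW cells. In the nuclei it was at 1122 and 1213 CPM in DA and at 901 and 1106 CPM in LEW. These levels were 27.9 to 68.3 times those of hepatocyte-rich barcodes, which are the barcodes left after members, Kupffer and endothelial barcodes are set aside. Col3a1, a fibrillar collagen chain, ranged from 871 to 1304 CPM in cells and from 1548 to 2477 CPM in nuclei. Igfbp3, a carrier of insulin-like growth factors, ranged from 1009 to 1395 CPM in cells and from 1334 to 2263 CPM in nuclei. The libraries lay close together for the collectin Colec11, at 1049 to 1255 CPM in cells, and for the proteoglycan Bgn, at 927 to 1218 CPM. Pth1r, the parathyroid hormone receptor, was at 348 to 528 CPM in cells and at 557 to 836 CPM in nuclei. The metalloreductase Steap4 was at 394 to 641 CPM in cells and at 662 to 820 CPM in nuclei, and the angiopoietin-like factor Angptl6 at 413 to 708 and 479 to 540 CPM.

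Members had a median of 12 to 24 marker UMIs in cells and 16 to 23 in nuclei. Just inside the threshold, 63 member cells and 12 member nuclei had exactly 5 marker UMIs. Just outside, 242 cells and 96 nuclei had 4, and 106 cells and 104 nuclei had at least 5 but too low a share. A further 170 cells and 9 nuclei were set aside for their Kupffer genes. Median depth of members was 2335 to 2511 UMIs in cells, against 2276 to 2528 in hepatocyte-rich cells, and 1262 to 1730 in nuclei against 1542 to 2141. The median mitochondrial share was 3.68% to 4.29% in member cells, against 4.12% to 9.57% in hepatocyte-rich cells. In nuclei it was 3.78% to 4.93%, against 2.86% to 3.61%. No member barcode was shared between nuclei libraries.

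Stellate cell genes that the rule did not use were high in the members. Of 18 such genes, 12 in cells and 17 in nuclei were at least 2 times the hepatocyte-rich level in every library. The same held for 7.07% of 9680 genes tested in cells (684) and for 9.26% of 11249 in nuclei (1042). Because members were selected on genes of the same cells, these counts describe the class and are no test of it. Lrat, which esterifies retinol, was at 132.6 and 171.7 CPM in DA cells and at 113.1 and 69.0 CPM in LEW cells. In nuclei it was at 194.2 and 302.3 CPM in DA and at 212.4 and 295.2 CPM in LEW. The Lrat level was 5.67 to 12.0 times the hepatocyte-rich level in cells and 16.7 to 27.8 times in nuclei, and the strains overlapped in nuclei. Hgf was at 155.3, 278.1, 317.8 and 256.4 CPM in the cells of DA-1, DA-2, LEW-1 and LEW-2, and at 771.4, 751.5, 842.3 and 648.2 CPM in the nuclei in the same order. That was 14.8 to 68.2 times the hepatocyte-rich level in cells and 49.9 to 138 times in nuclei. The strains overlapped in both assays. The platelet-derived growth factor receptor Pdgfrb was at 53.0 to 94.7 CPM in cells and at 350.6 to 449.2 CPM in nuclei. The secreted glycoprotein Reln, a stellate marker, was at 60.0 to 75.6 CPM in cells and at 124.5 to 264.5 CPM in nuclei. The transcription factor Lhx2 was at 47.0 to 78.9 CPM in cells and at 95.2 to 218.3 CPM in nuclei. Tcf21, another mesenchymal transcription factor, was at 62.9 to 140.0 CPM in cells and at 75.5 to 112.0 CPM in nuclei.

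**Figure D1:**
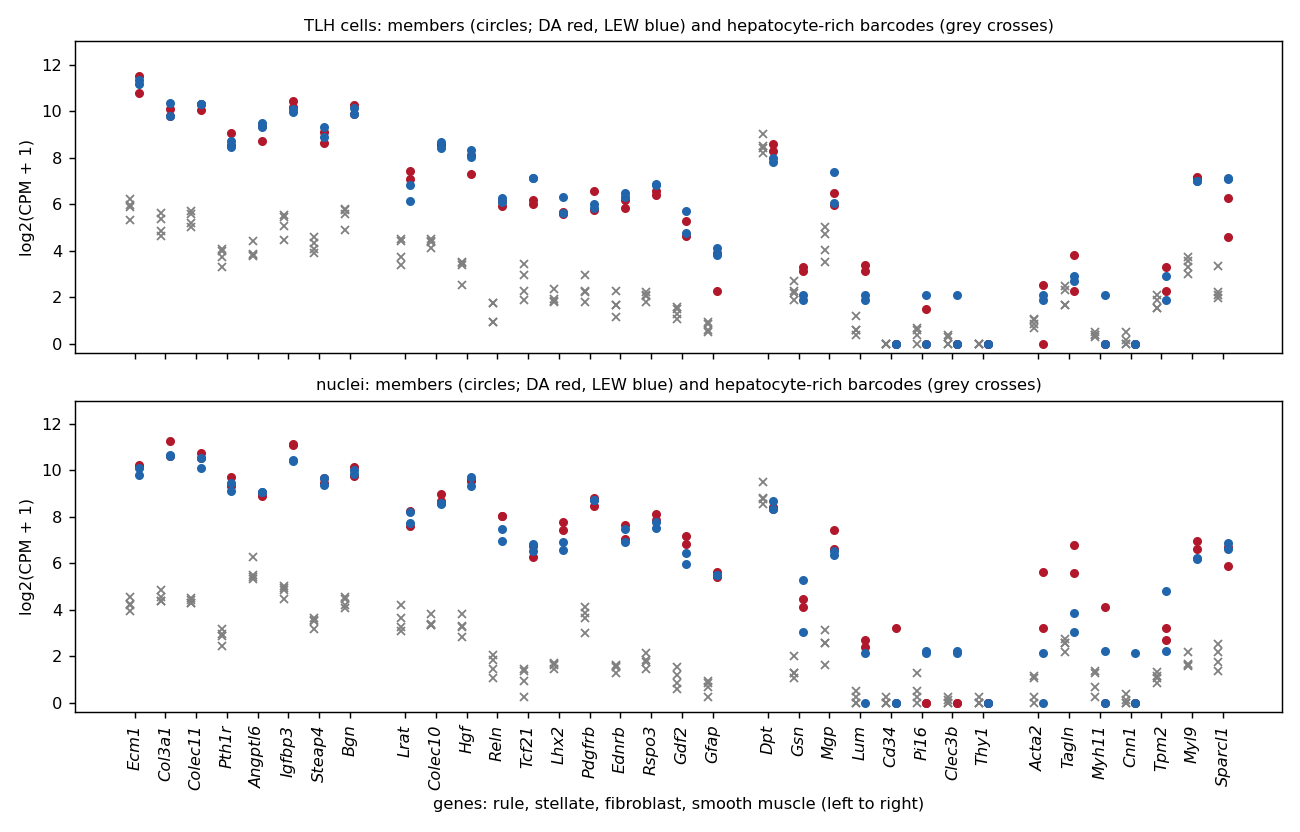
Levels of rule, stellate, fibroblast and smooth muscle genes as log2(CPM + 1), with TLH cells in the upper panel and nuclei in the lower one. Circles are the members of each of the 4 libraries of an assay and grey crosses its hepatocyte-rich barcodes. Circles of Lrat, Hgf and Pdgfrb lie above the crosses in every library, and circles of Dpt do not.

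Detection per barcode showed the same order after each barcode was thinned to 1000 UMIs. Hgf was detected in 52.3% to 58.8% of member nuclei per library, against 0.40% to 0.89% of hepatocyte-rich nuclei, and without thinning in 67.7% to 77.9% against 1.05% to 2.77%. In cells the thinned share was 18.3% to 27.4%, against 0.50% to 1.11%, and the unthinned share of members 31.7% to 48.0%. Endothelial barcodes lay between, with Hgf detected after thinning in 15.1% to 23.1% of nuclei and 2.35% to 4.83% of cells. Lrat was detected after thinning in 23.2% to 28.0% of member nuclei and in 5.77% to 13.8% of member cells, against 0.85% to 1.61% and 1.00% to 1.94% of hepatocyte-rich barcodes. At least 2 UMIs of 12 stellate genes outside the rule, a list chosen after the levels were seen, were found after thinning in 340 of 1009 member cells (33.7%) and 229 of 346 member nuclei (66.2%), against 0.29% and 0.40% of hepatocyte-rich barcodes. Without thinning they were found in 678 member cells (67.2%) and 286 member nuclei (82.7%), against 1.87% and 1.70%.

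The label also names other mesenchymal cells, whose genes were in part near 0 and in part above the hepatocyte-rich level. Without thinning, at least 2 UMIs of 8 fibroblast genes were found in 6 of 1009 member cells and 1 of 346 member nuclei, and of 6 smooth muscle genes in 3 cells and 12 nuclei. Of those 12 nuclei, 10 were among the 161 of DA and 2 among the 185 of LEW. The first list was Pi16, Clec3b, Cd34, Thy1, Mfap4, Fbln1, Lum and Col15a1, and the second Acta2, Myh11, Cnn1, Tagln, Actg2 and Lmod1. Both short lists were chosen after the levels were seen. They leave out Mgp, Gsn, Eln, Myl9, Smtn, Sparcl1 and Tpm2, which were above the hepatocyte-rich level as given below. Low counts were thus favoured by the choice, and they do not measure how many other mesenchymal cells were present. Of 14 fibroblast genes, Mgp and Lum were at least 2 times the hepatocyte-rich level in every library of cells and Gsn, Mgp and Eln in nuclei. Cd34, Clec3b, Thy1, Gas1, Col15a1 and Mfap4 had at most 3 UMIs over all member cells. The portal fibroblast gene Entpd2 was at 0 to 3.3 CPM in cells and 0 to 7.3 CPM in nuclei. Dpt, a matrix protein often used as a fibroblast marker, was at 226.8 to 381.0 CPM in member cells, which was 0.732 to 0.866 times the hepatocyte-rich level. Acta2, the smooth muscle actin, was at 0, 4.7, 2.7 and 3.3 CPM in the cells of DA-1, DA-2, LEW-1 and LEW-2, and at 48.5, 8.4, 0 and 3.4 CPM in the nuclei. Only the DA-1 nuclei stood above 10 CPM. Cnn1 and Actg2 had at most 3 UMIs in either assay. Of 12 smooth muscle genes, the myosin light chain Myl9, Smtn and Sparcl1 passed the factor of 2 in cells and Tpm2 with them in nuclei. Myl9 was at 124.9 to 143.9 CPM in cells and at 71.3 to 124.1 CPM in nuclei, and Sparcl1 at 22.7 to 140.0 CPM and 58.8 to 117.2 CPM. The whole smooth muscle list took 0.0303% to 0.0426% of UMIs in member cells, against 0.0075% to 0.0084% in hepatocyte-rich cells, and 0.0597% to 0.0689% in member nuclei, against 0.0096% to 0.0173%. The whole fibroblast list took 0.0372% to 0.0501% in member cells and 0.0335% to 0.0545% in hepatocyte-rich cells. The stellate list took 0.162% to 0.228% in member cells, against 0.0204% to 0.0614%, and 0.297% to 0.350% in member nuclei, against 0.0099% to 0.0214%. Of 6 mesothelial genes Msln was past the factor of 2 in cells and none in nuclei.

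Transcripts of other liver cells were present in the members. The 8 hepatocyte genes took 8.47% to 9.33% of UMIs in member cells, near the 10.0% to 11.0% in hepatocyte-rich cells, and 4.70% to 6.75% in member nuclei, against 5.45% to 9.32%. Only in the nuclei of LEW-2 did members lie above the hepatocyte-rich barcodes of their library, at 6.75% against 5.45%. Of 11 endothelial genes, 9 were at least 2 times the hepatocyte-rich level in each assay. The endothelial list took 0.0818%, 0.135%, 0.137% and 0.141% of member UMIs in the cells of DA-1, DA-2, LEW-1 and LEW-2, against 0.404% to 0.550% in endothelial cells. In nuclei it took 0.0825% to 0.131%, against 1.11% to 1.61%. Of 6 Kupffer genes outside the rule, none was past the factor of 2 in cells, and Marco, Cd68, Csf1r and Aif1 were in nuclei, where the list took 0.0201% to 0.0288% of UMIs. No leukocyte or cholangiocyte gene of 6 each reached it. Hepatocyte-rich barcodes can themselves include such cells, so this does not show that these transcripts were absent from members. The leukocyte list took 0.0118% to 0.022% of UMIs in member cells, against 0.0297% to 0.0462% in hepatocyte-rich cells. In nuclei it took 0.0092% to 0.0194% in members, against 0.0032% to 0.0105%. The endothelial lectin Clec4g, the cholangiocyte keratin Krt19 and the T cell gene Cd3e had at most 3 UMIs over all members.

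The collagen list took 0.0992% to 0.15% of UMIs in member cells and 0.197% to 0.343% in member nuclei, against 0.0022% to 0.0103% in endothelial cells and 0.0031% to 0.0101% in endothelial nuclei. The basement membrane list took 0.117% to 0.151% in member cells, against 0.0714% to 0.0888% in endothelial cells. In nuclei it took 0.135% to 0.194%, which overlapped the 0.117% to 0.176% of endothelial nuclei. The counts in this and the next paragraph include genes of the rule, which passed by choice, namely Col3a1 among the collagens, Bgn among the other matrix genes, Igfbp3 and Angptl6 among the growth factors and Pth1r among the receptors. Of 7 collagen genes, 6 in cells and 7 in nuclei were at least 2 times the hepatocyte-rich level in every library. The exception in cells was Col5a1. The study used Col1a1, a fibrillar collagen also known from activated stellate cells, among its genes for fibroblast-like subclusters of mesenchymal cells. It was at 30.3, 20.6, 43.1 and 62.5 CPM in the cells of DA-1, DA-2, LEW-1 and LEW-2. In the nuclei it was at 16.2, 193.1, 51.3 and 57.7 CPM, where DA-2 stood apart from the other libraries. Of 10 basement membrane genes, 7 in cells and 9 in nuclei passed the factor of 2. Sparc, a collagen-binding glycoprotein, was at 756.1 to 939.7 CPM in cells and at 475.1 to 789.3 CPM in nuclei. The network collagen Col4a1 was at 98.6 to 177.0 CPM in cells and at 200.2 to 302.3 CPM in nuclei. Of 16 genes of matrix processing, 11 and 12 passed the factor of 2, among them the gelatinase Mmp2 at 41.7 to 86.2 CPM in cells and at 80.9 to 130.2 CPM in nuclei. This list took 0.047% to 0.054% in member cells, within the 0.0218% to 0.0579% of Kupffer cells. In member nuclei it took 0.0648% to 0.144%, which overlapped the 0.0472% to 0.111% of endothelial nuclei. Of 17 proteoglycan, elastic fibre and matricellular genes, 7 passed the factor of 2 in each assay, and Postn, Vcan and Thbs1, often induced in fibrosis, had at most 3 UMIs over all members.

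Among 27 growth factor and binding protein genes, 15 in cells and 17 in nuclei were at least 2 times the hepatocyte-rich level. Igfbp7 was at 1477, 2058, 2219 and 2022 CPM in the cells and at 437, 374, 333 and 373 CPM in the nuclei of DA-1, DA-2, LEW-1 and LEW-2. It had the highest mean of all genes outside the rule that passed the factor of 2 in cells. Rspo3 was at 83.5 to 115.1 CPM in cells and at 179.9 to 275.1 CPM in nuclei, and Bmp5, a bone morphogenetic protein, at 72.0 to 108.5 and 251.1 to 365.3 CPM. Gdf2, the circulating ligand known as Bmp9, was at 23.5 to 51.2 CPM in cells and at 62.3 to 142.7 CPM in nuclei. Of 19 receptors, 11 passed in each assay. They included the angiotensin receptor Agtr1a at 151.5 to 258.5 CPM in cells and 319.1 to 413.8 CPM in nuclei, and the calcitonin-like receptor Calcrl at 94.7 to 172.9 and 272.9 to 523.7 CPM. Calcrl was at 72.2 to 99.9 CPM in endothelial cells and at 219.7 to 479.6 CPM in endothelial nuclei, which overlap the members in both assays. Of 14 genes of retinoid handling, Lrat passed in cells and Lrat and Cyp26b1, which degrades retinoic acid, in nuclei.

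The share of barcodes that were members was higher in both DA rats than in both LEW rats in cells, and the strains overlapped in nuclei. Members were 104 of 2351 cells in DA-1 (4.42%, exact 95% binomial interval 3.63% to 5.33%), 636 of 10167 in DA-2 (6.26%, 5.79% to 6.74%), 146 of 5457 in LEW-1 (2.68%, 2.26% to 3.14%) and 123 of 3844 in LEW-2 (3.20%, 2.67% to 3.81%). In nuclei they were 68 of 2205 (3.08%, 2.40% to 3.89%), 93 of 2557 (3.64%, 2.95% to 4.44%), 86 of 5262 (1.63%, 1.31% to 2.01%) and 99 of 2501 (3.96%, 3.23% to 4.80%) in the same order. Among the nuclei LEW-2 was the highest and LEW-1 the lowest. The intervals cover counting error only. Over both assays the mean log2 share was lower in LEW by 0.62 (two-sided exact permutation test within assays, p = 0.167, 36 arrangements). The smallest p this design allows is 0.056, so the test could not pass 0.05 and shows neither a difference nor its absence. A share depends on how many cells of each kind survived digestion or extraction. TLH DA-2 alone gave 636 of the 1009 member cells and 1700599 member UMIs, against 263995 in TLH DA-1. For the comparisons that follow UMIs were summed to 1 value per rat, and a rat with more UMIs carried more weight in the fits.

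**Figure D2:**
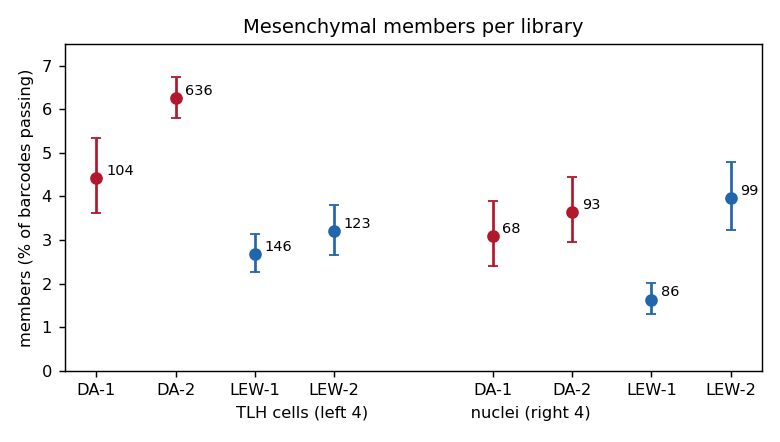
Percentage of barcodes passing the filters that were members, for each TLH and nuclei library, with exact 95% binomial intervals as bars and the number of members written beside each point. DA libraries are red and LEW libraries blue. The DA cells lie at 4.42% and 6.26%, above the LEW cells at 2.68% and 3.20%, and the nuclei overlap.

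The comparison of strains asked which genes of the mesenchymal cells differ between DA and LEW. In nuclei, Fosb, Ccn2, Srf and Klf6 were lower in LEW than in DA. Over all genes, 19 of 4464 were lower in LEW (0.426%) and 8 higher (0.179%) by the quasi-likelihood test of edgeR at an adjusted p under 0.05. Of the 446 genes at least 2 times the hepatocyte-rich level in every nuclei library, 4 were lower, namely Fosb, Ccn2, Klf6 and Klf4, and 1 higher, RT1-T24-3. The median log2 difference of these 446 genes was -0.21, against 0.02 for the other genes tested. Genes of the rule took 0.944% and 1.06% of member UMIs in DA nuclei and 0.850% and 0.775% in LEW nuclei. The part of this lower marker share in the calls was not tested. Fosb, a subunit of the transcription factor AP-1, was at 1953 and 1247 CPM in the DA nuclei and at 14.6 and 37.3 CPM in the LEW nuclei. Its log2 difference was -5.91 ± 0.46 (SE, adjusted p = 1.5e-05), and both DA rats lay far above both LEW rats. Ccn2, a matricellular protein known as connective tissue growth factor, was at 793.0 and 323.3 CPM in DA and at 22.0 and 50.9 CPM in LEW. The log2 difference of Ccn2 was -3.91 ± 0.53 (adjusted p = 0.0032). Srf itself was at 205.0 and 201.5 CPM in DA and at 22.0 and 27.1 CPM in LEW, where it was near its hepatocyte-rich level and so missed the factor of 2, with a log2 difference of -3.01 ± 0.39 (adjusted p = 0.0014). Klf6, a zinc finger factor, was at 393.8 and 239.3 CPM in DA and at 29.3 and 54.3 CPM in LEW. Its log2 difference was -2.89 ± 0.41 (adjusted p = 0.0031). The gene higher in LEW was RT1-T24-3, a class I histocompatibility gene, at 16.2 and 33.6 CPM in DA and 219.7 and 152.7 CPM in LEW (2.83 ± 0.43, adjusted p = 0.0045). Fosb, Ccn2, Srf, Klf6 and RT1-T24-3 were called under each of 12 alternatives, over which Fosb ranged from -6.89 to -5.37 and Srf from -4.11 to -2.83. With 2 rats per strain these calls rest on 4 libraries.

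The promoters printed above belong to 3 of these genes. The AP-1 related factor Atf3 was at 102.5 and 230.9 CPM in DA and at 18.3 and 23.8 CPM in LEW (-2.96 ± 0.47, adjusted p = 0.0064). In hepatocyte-rich nuclei Atf3 was at 113.2 and 152.5 CPM in DA and at 11.6 and 60.7 CPM in LEW, and the call in members was lost with the deepest members left out. Klf4, a zinc finger factor that restrains smooth muscle genes, was at 75.5 and 96.6 CPM against 18.3 and 13.6 CPM (-2.41 ± 0.47, adjusted p = 0.03), and its call held under 7 of 11 alternatives (-2.05, adjusted p = 0.22 without members that carried endothelial genes). Levels of Atf3 and Klf4 were higher in both DA rats than in both LEW rats. Ccn1, the matricellular relative of Ccn2, was at 2034 and 974.0 CPM in DA and at 65.9 and 291.8 CPM in LEW, which did not pass the test (-3.06, adjusted p = 0.14). The AP-1 subunit Fos was at 1629 and 1184 CPM in DA and at 18.3 and 257.9 CPM in LEW, which did not pass either (-3.32 ± 0.89, adjusted p = 0.27). In both genes the libraries of the strains lay apart, and LEW-1 lay far below LEW-2. Others that passed in nuclei were the amine oxidase Aoc3 (-4.25), the zinc finger factor Zbtb16 (-3.91), the small GTPase Rhob (-2.32), the growth inhibitor Btg2 (-1.98) and the actin Actb (-1.43), all lower in LEW. Zbtb16, Rhob, Btg2 and Actb were named after their values were seen, and their calls were not followed under the alternatives.

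The immediate-early genes, which cells switch on within minutes of a stimulus, differed between libraries in more than 1 cell class. Their list of 9 genes took 0.823% and 0.666% of member UMIs in DA nuclei and 0.139% and 0.305% in LEW nuclei. In hepatocyte-rich nuclei it took 0.274%, 0.337%, 0.108% and 0.480%, and in endothelial nuclei 0.413%, 0.359%, 0.0975% and 0.292%, in the order DA-1, DA-2, LEW-1, LEW-2. The list took 0.635%, 0.368%, 0.124% and 0.258% in Kupffer nuclei in that order. Both LEW libraries lay below both DA libraries in members, endothelial nuclei and Kupffer nuclei, and LEW-2 was the highest in hepatocyte-rich nuclei. Fosb in hepatocyte-rich nuclei was at 65.1 and 35.2 CPM in DA and at 0.5 and 5.2 CPM in LEW. The strain difference of Fosb in members minus that in hepatocyte-rich nuclei did not pass the test (-1.55, adjusted p = 1.0). Srf in hepatocyte-rich nuclei was at 20.7 and 39.0 CPM in DA and at 21.3 and 25.7 CPM in LEW. All 9 genes had a negative log2 difference in nuclei, with a median of -1.66 against 0.00 over all genes tested, and Atf3 and Fosb passed the test. For all 9 the strain difference in members minus that in hepatocyte-rich nuclei was negative, with a median of -0.72 against 0.02 over all genes tested. Egr1 alone of the 9 passed that test. Members were not tested against endothelial or Kupffer nuclei in this way.

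In TLH cells 38 of 3560 genes were lower in LEW (1.07%) and 16 higher (0.449%). Without further scaling of library sizes, a setting added after the data were seen, the split was 44 lower and 29 higher. Among 281 genes at least 2 times the hepatocyte-rich level, 2 were lower and 1 higher. Fos was at 215.9 and 178.8 CPM in DA cells and at 40.4 and 92.0 CPM in LEW cells (-1.60 ± 0.33, adjusted p = 0.032). Hepatocyte-rich cells held 16.6 and 16.7 CPM of Fos in DA and 5.5 and 10.6 CPM in LEW. Clec2l, a C-type lectin-like gene, was at 37.9 and 31.8 CPM in DA and at 2.7 and 3.3 CPM in LEW (-3.44 ± 0.75, adjusted p = 0.042). Both LEW levels of Clec2l lay under 4.44 CPM, the level of 3 counts over the LEW member cells. Hepatocyte-rich cells held 2.2 and 1.6 CPM of Clec2l in DA and 0.2 and 0.4 CPM in LEW. Pmp22, a membrane protein best known from myelin, was at 7.6 and 18.2 CPM in DA and at 70.0 and 49.3 CPM in LEW (1.85 ± 0.41, adjusted p = 0.044). For each of the 3 both rats of one strain lay above both rats of the other. These calls held under 11 of 14, 7 of 11 and 10 of 14 alternatives. Without members that carried endothelial genes Pmp22 was at 1.94 (adjusted p = 0.097). In nuclei Pmp22 did not pass and had the opposite sign (-0.82, adjusted p = 0.81), and the difference between the assays did not pass the test (adjusted p = 0.48). Of 7 immediate-early genes tested in cells, Fos and Jun passed, Jun under 10 of 14 alternatives (-1.05, adjusted p = 0.097 without members that carried endothelial genes), and all 7 were negative, with a median of -1.34 against 0.01 over all genes. That list took 0.108%, 0.141%, 0.0396% and 0.0638% of UMIs in member cells and 0.0701%, 0.0676%, 0.0274% and 0.0542% in hepatocyte-rich cells.

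**Figure D3:**
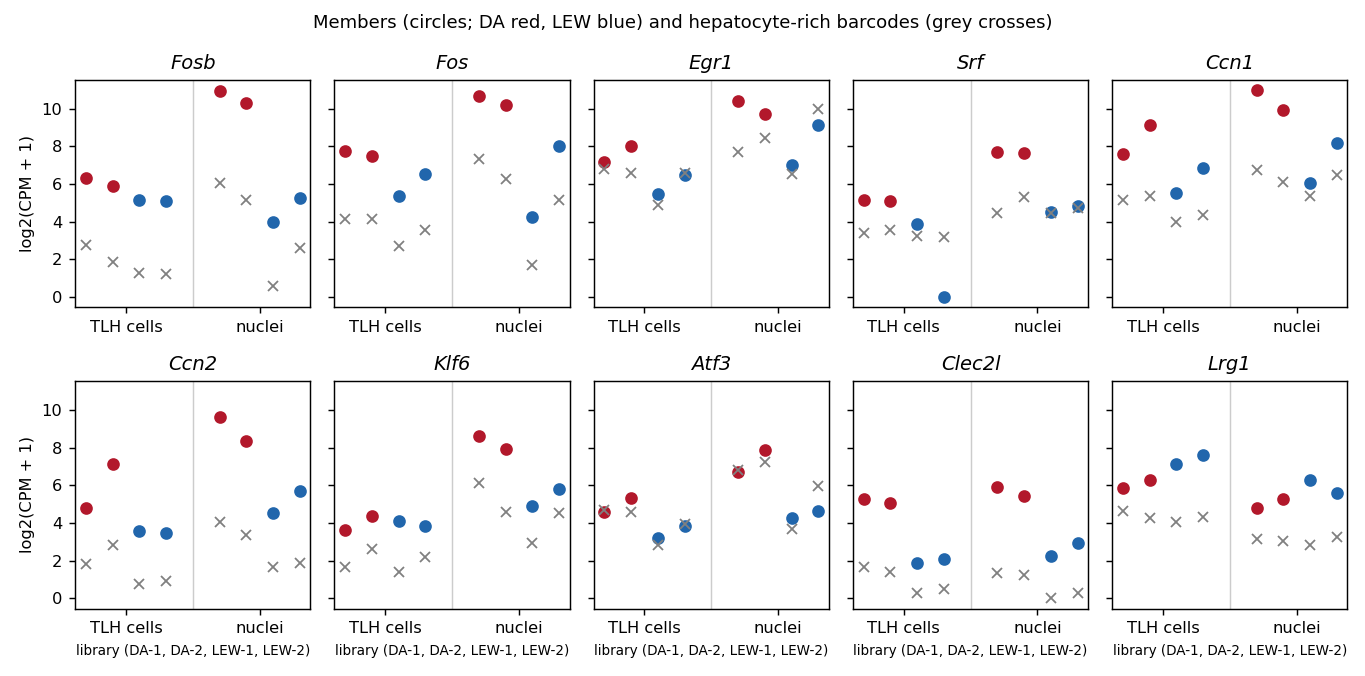
Level of 10 genes as log2(CPM + 1) in each library, DA red and LEW blue, with members as circles and hepatocyte-rich barcodes as crosses, for TLH cells and nuclei. Fosb in member nuclei is at 1953 and 1247 CPM in DA and at 14.6 and 37.3 CPM in LEW, and in member cells at 79.5 and 58.2 CPM and at 35.0 and 32.9 CPM.

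Fosb was the single gene of 5264 that passed the test of whether the strain difference differed between cells and nuclei (0.019%). Genes that did not pass are not shown to have the same strain difference in both assays. Fosb levels in cells were 79.5 and 58.2 CPM in DA and 35.0 and 32.9 CPM in LEW, a log2 difference of -0.95 ± 0.34 that did not pass the test (adjusted p = 0.23). The difference in cells minus that in nuclei was 5.00 ± 0.61 (edgeR interaction term, adjusted p = 0.00013), and it held under 16 of 16 alternatives at 4.45 to 6.23. The 2 assays differ in chemistry, tissue handling and filters, which cannot be told apart from one another here. For Srf the interaction did not pass (0.88, adjusted p = 0.92), with levels of 34.1, 33.5, 13.5 and 0 CPM in the cells of DA-1, DA-2, LEW-1 and LEW-2. Klf6 in cells was at 11.4 and 19.4 CPM in DA and at 16.2 and 13.1 CPM in LEW, with the strains overlapping.

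Over both assays in 1 fit, with the assay as a term, 78 of 5264 genes were lower in LEW (1.48%) and 53 higher (1.01%). That fit takes the 8 libraries as independent, which they are not if rats are shared between the assays. Of the 353 genes at least 2 times the hepatocyte-rich level in all 8 libraries, 9 were lower and 1 higher. Clec2l was lower in LEW in both assays, with nuclei at 59.3 and 42.0 CPM in DA and at 3.7 and 6.8 CPM in LEW. Its log2 difference over both was -3.25 ± 0.51 (adjusted p = 0.00016), which held under 16 of 16 alternatives. Adamts2, which trims procollagens, was at 30.3, 45.9, 10.8 and 13.1 CPM in the cells and at 59.3, 79.8, 47.6 and 13.6 CPM in the nuclei of DA-1, DA-2, LEW-1 and LEW-2 (-1.45 ± 0.36, adjusted p = 0.021). P3h3, a collagen prolyl hydroxylase family member, was at 49.2, 48.2, 21.5 and 6.6 CPM and at 70.1, 63.0, 25.6 and 40.7 CPM (-1.31 ± 0.33, adjusted p = 0.027). In both genes each DA rat lay above each LEW rat of the same assay. Acer2, a ceramidase, was at 64.4, 78.2, 26.9 and 46.0 CPM in cells and at 345.2, 184.7, 139.2 and 91.6 CPM in nuclei (-1.12 ± 0.26, adjusted p = 0.012). Ccn2 was at 26.5, 140.5, 10.8 and 9.9 CPM in cells, and over both assays its difference was -3.71 ± 0.68 (adjusted p = 0.048). The calls of Adamts2, P3h3 and Ccn2 held under 12 of 17 alternatives each and that of Acer2 under 14 of 17. Srf passed over both assays as well (-2.77, adjusted p = 9.1e-06), and it held under 17 of 17. The other genes lower in LEW among the 9 were Klf6 (-2.20), the receptor Adcyap1r1 (-1.47), Tmem178a (-1.43) and the cytochrome Cyp4b1 (-1.38), with Adcyap1r1 and Cyp4b1 named after their values were seen. The call of Tmem178a held under 7 of 17 alternatives (-1.25, adjusted p = 0.12 without members that carried endothelial genes).

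Lrg1, a secreted leucine-rich glycoprotein, was higher in LEW over both assays, at 56.8, 77.6, 137.3 and 197.2 CPM in cells and at 27.0, 37.8, 76.9 and 47.5 CPM in nuclei (1.16 ± 0.25, adjusted p = 0.007). The adrenomedullin coreceptor Ramp2 was at 22.7, 49.4, 97.0 and 134.8 CPM in cells and at 10.8, 42.0, 51.3 and 64.5 CPM in nuclei (1.35 ± 0.30, adjusted p = 0.0075). Each LEW rat lay above each DA rat of the same assay for both genes. Both genes are also expressed by endothelium, whose list was lowest in TLH DA-1. With members that carried endothelial genes left out, the value of Lrg1 was 0.48 (adjusted p = 0.64), and Ramp2 no longer passed the filter on low counts. Ramp2 is one of the genes by which those members were picked, so its loss of counts was built in.

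Most of the matrix and stellate programme did not pass the test between strains. Of the genes outside the rule, 0 of 6 collagens, 0 of 7 basement membrane genes, 0 of 6 other matrix genes, 0 of 6 collectin and complement genes and 0 of 14 stellate genes tested over both assays were called, and none was called in cells or nuclei alone. These calls are read beside the 1.48% and 1.01% of all genes. In nuclei all 5 collagens tested were negative (median log2 difference -0.71), as were 8 of 10 matrix processing genes (median -0.86). In cells the 2 collagens tested were positive (median 0.81), and 4 of 7 matrix processing genes were negative (median -0.23). The medians were not tested. Of 12 genes of matrix processing, 4 were lower in LEW over both assays, among them Adamts2, the collagen lysyl hydroxylase Plod2 (-2.55) and the metalloproteinase inhibitor Timp3 (-1.91). The call of Plod2 held under 5 of 15 alternatives, and was lost when any 1 of the 8 libraries was left out, and that of Timp3 under 7 of 16. Of 17 growth factor genes, Ccn2 and the binding protein Igfbp6 (-2.71) were lower. Of 12 receptors, Ramp2 was higher. Of 9 retinoid genes, the retinal reductase Dhrs3 was lower (-0.81), and it was also at 109.3 and 111.9 CPM in DA and 84.2 and 68.8 CPM in LEW in hepatocyte-rich cells. The call of Dhrs3 held under 6 of 17 alternatives. Of 9 immediate-early genes, 4 were lower, Jun (-1.17), Atf3 (-2.52), Zfp36 (-1.03) and Nr4a1 (-1.76). Of 5 smooth muscle genes, Tagln was lower (-2.14), at 107.9 and 46.2 CPM in DA nuclei and 7.3 and 13.6 CPM in LEW nuclei. The calls of Nr4a1 and Tagln held under 9 and 10 of 17 alternatives, that of Zfp36 under 14 of 17 and that of Igfbp6 under 13 of 16, and those of Jun and Atf3 under all 17. Without members that carried endothelial genes, Timp3 (-2.03, adjusted p = 0.061), Dhrs3 (-0.73, adjusted p = 0.11) and Nr4a1 (-1.69, adjusted p = 0.13) were not called. A gene that did not pass is not shown to be alike in the strains.

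Genes outside the mesenchymal programme also differed. Ubd, a ubiquitin-like protein, was at 227.3 and 227.6 CPM in DA cells and had 0 UMIs in LEW cells, at least 51.2-fold lower against 3 counts over the group. Hepatocyte-rich cells carried 223.0 and 176.6 CPM of Ubd in DA and 0.3 and 1.0 CPM in LEW. Mlc1 was at least 20.0-fold lower and the carboxylesterase Ces2e at least 10.6-fold lower in LEW cells. The cytochrome Cyp4a2, a hepatocyte gene, was lower by log2 in LEW cells (-4.09) and nuclei (-4.30), and the hepatocyte-secreted Mst1 was higher in LEW cells (2.98), a call lost without members that carried endothelial genes (2.67, adjusted p = 0.13). Class I histocompatibility genes went both ways, with RT1-A1 higher in LEW cells (2.03) and nuclei (1.58), RT1-CE10 lower in cells (-1.63) and RT1-A2 lower in nuclei (-2.41). RT1 genes are near-identical copies that differ between strains, and reads of both strains were aligned to 1 reference. Expression and alignment cannot be told apart for them. Among hepatocyte genes Fabp1, a fatty acid-binding protein, was higher in LEW over both assays (0.78, adjusted p = 0.0073), and among leukocyte genes Lyz2, a lysozyme, was (2.28, adjusted p = 0.007). The call of Fabp1 was lost without LEW-2 of either assay and that of Lyz2 without DA-2 or LEW-1 of the cells, and that of RT1-A1 in nuclei held under 9 of 12 alternatives.

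The next comparison asked whether the strain difference in members differed from that in hepatocyte-rich barcodes of the same rats. It held a sum of each kind of barcode per rat, with the library as a term. Its p-values measure how the difference between the kinds varied among rats of a strain. In cells 10 of 9680 genes passed (0.103%), 6 with a higher and 4 with a lower value in members, and with the size factors of DESeq2 the split was 16 and 3. In nuclei 9 of 11249 passed (0.08%), 1 higher and 8 lower. Bco1, which cleaves beta-carotene to retinal, passed in both assays. It was at 68.2, 49.4, 70.0 and 82.2 CPM in member cells and at 3.3, 1.5, 18.4 and 20.8 CPM in hepatocyte-rich cells of DA-1, DA-2, LEW-1 and LEW-2 (-2.90 ± 0.37, adjusted p = 1.5e-09). In nuclei it was at 215.8, 289.7, 219.7 and 244.3 CPM in members and at 1.1, 1.7, 22.4 and 24.4 CPM in hepatocyte-rich barcodes (-4.12 ± 0.52, adjusted p = 2.7e-11). Member levels of Bco1 overlapped between the strains in nuclei and lay close together in cells, while both LEW rats lay far above both DA rats in hepatocyte-rich barcodes. The call held under 12 of 12 alternatives in cells and 11 of 11 in nuclei.

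The chemokine Cxcl12 was at 371.2, 492.2, 409.4 and 335.3 CPM in member cells and at 127.3, 145.1, 190.3 and 183.6 CPM in hepatocyte-rich cells (-0.72 ± 0.17, adjusted p = 0.042), a call that held under 3 of 12 (-0.72, adjusted p = 0.082 without members that carried endothelial genes). The part in the member levels of hepatocyte RNA, whose list took 8.47% to 9.33% of member UMIs in cells, was not tested.

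**Figure D4:**
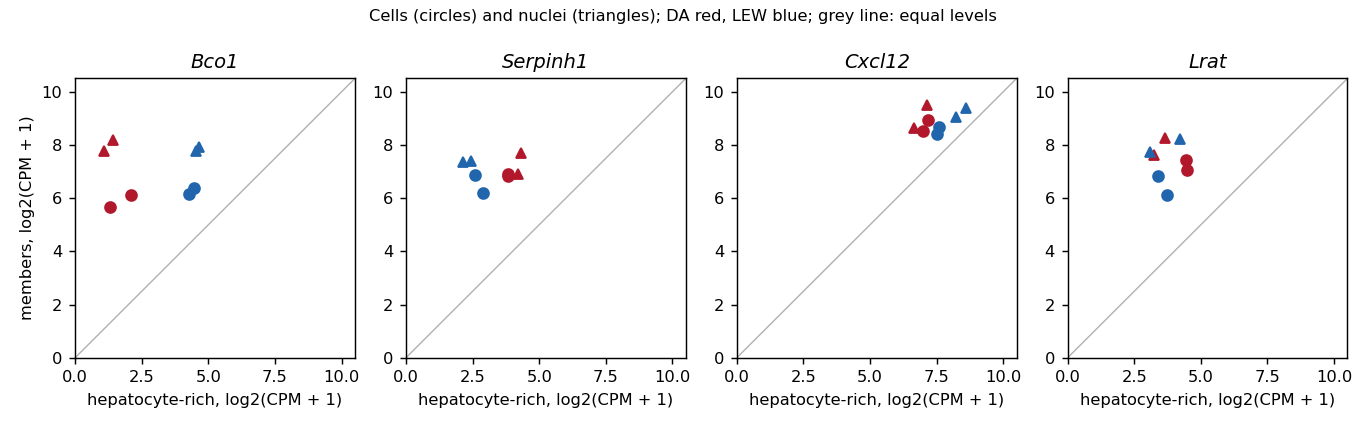
Level in members against level in hepatocyte-rich barcodes of the same library, both as log2(CPM + 1), for Bco1, Serpinh1, Cxcl12 and Lrat, with cells as circles, nuclei as triangles, DA red, LEW blue and a grey line of equality. Bco1 shifts along the hepatocyte-rich axis between strains (1.1 to 3.3 CPM in DA, 18.4 to 24.4 CPM in LEW) and less along the member axis.

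Among the 8 genes with a more negative LEW difference in members than in hepatocyte-rich nuclei were Srf (-2.71 ± 0.51, adjusted p = 0.00036), Ccn1 (-2.72 ± 0.51, adjusted p = 0.00036) and Egr1 (-2.20 ± 0.52, adjusted p = 0.032), an immediate-early zinc finger factor. Ccn1 in hepatocyte-rich nuclei was at 106.9 and 67.6 CPM in DA and at 40.4 and 89.9 CPM in LEW. Egr1 was at 1349, 839.7, 128.2 and 556.5 CPM in member nuclei and at 209, 352, 92.6 and 1004 CPM in hepatocyte-rich nuclei, with LEW-2 the highest of the latter. Without DA-1 none of these 3 passed, with Srf at -2.23 (adjusted p = 0.6) and Ccn1 at an adjusted p of 0.66, and without DA-2 Ccn1 and Egr1 did not. Srf and Egr1 also did not pass with the DESeq2 test. Serpinh1, the collagen chaperone, went the other way. It was at 118.7, 205.7, 161.1 and 169.7 CPM in members and at 17.6, 19.0, 3.4 and 4.5 CPM in hepatocyte-rich nuclei (2.26 ± 0.45, adjusted p = 0.0011). The collagen crosslinker Lox was at 10.8, 42.0, 3.7 and 23.8 CPM in members and at 0.7, 0, 2.8 and 17.7 CPM in hepatocyte-rich nuclei (-5.83 ± 1.1, adjusted p = 0.00036). With DA hepatocyte-rich levels of 0.7 and 0 CPM, the fold of Lox rests on few counts. In both genes the hepatocyte-rich levels of the strains lay apart and the member levels overlapped. The call of Serpinh1 was lost with the DESeq2 test and without either DA library, and that of Lox with the DESeq2 test and without DA-2 or LEW-2.

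In cells, 4 genes that are known from endothelium had a more positive LEW difference in members than in hepatocyte-rich barcodes, namely Lrg1 (1.38), Ramp2 (1.51), the inhibitory Fc receptor Fcgr2b (1.18) and the tetraspanin Tspan7 (1.22). With members that carried endothelial genes left out, their values were 0.73, 0.39, 0.20 and 1.02 and none passed. Ramp2 and Fcgr2b are among the genes by which those members were picked, so their fall was built in. The erythroid gene Hbb passed (9.42), with 0, 0, 2.7 and 177.5 CPM in members, and rested on LEW-2, without which it did not pass.

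Cells and nuclei were compared over the 8 libraries with the strain as a term. This contrast holds the chemistry, the state of the tissue, the UMI limit and the higher marker share of nuclei together, and these cannot be told apart. Of 5264 genes, 1525 were higher in cells (29.0%) and 1779 higher in nuclei (33.8%). Scaling by the trimmed mean of M-values (TMM) raised cells minus nuclei by 0.65 on the log2 scale against CPM, and without scaling, a setting added after the data were seen, the split was 882 and 2841. The median over all genes was -0.18. Of the 353 genes at least 2 times the hepatocyte-rich level in all libraries, 60 were higher in cells and 148 in nuclei.

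Adamts13, the protease that cuts von Willebrand factor, was at 3.8, 5.3, 5.4 and 13.1 CPM in cells and at 334.4, 335.9, 534.7 and 352.9 CPM in nuclei (-5.25 ± 0.30, adjusted p = 6.5e-14). It is known to be made by stellate cells, and in hepatocyte-rich nuclei it was at 1.6 to 3.8 CPM. Other genes higher in nuclei were the leukaemia inhibitory factor receptor Lifr (-3.45), the cytoskeletal linker Macf1 (-3.10), Klf6 (-2.92) and the matrix protein Adamtsl2 (-2.88). Igfbp7 was the reverse, with 1477 to 2219 CPM in cells and 333 to 437 CPM in nuclei (2.94 ± 0.19, adjusted p = 4.9e-13). Further genes higher in cells were the endothelial gene Fam167b (3.02), the interferon-induced Ifitm2 (2.52), the annexin Anxa5 (2.34) and the lectin Lgals1 (2.13). For each of these genes named with levels, no cell library overlapped any nuclei library.

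By role, 5 of 6 collagens tested outside the rule were higher in nuclei and 0 in cells, with a median of -1.49. Of 17 growth factor genes, 10 were higher in nuclei and 3 in cells (median -0.94), and of 12 receptors 5 and 2 (median -0.48). Of 14 stellate genes 9 were higher in nuclei and 3 in cells (median -0.85), and of 9 immediate-early genes 6 and 0 (median -1.61). Retinoid genes were split, with Aldh1a1 (1.73), which makes retinoic acid, and Rarres2 (1.21) among 3 higher in cells and the retinoic acid receptor Rarb (-2.75) higher in nuclei. Aldh1a1 was at 101.9 to 179.9 CPM in member cells and at 114.7 to 161.5 CPM in hepatocyte-rich cells. Rarres2 was at 853.7 to 1094.9 CPM in the former and at 620.5 to 967.2 CPM in the latter. Of 6 collectin and complement genes 4 were higher in cells and 2 in nuclei, and Colec10, C1r and C1s changed sign without the scaling. C1r, C1s and Serping1, higher in cells, did not reach 2 times the hepatocyte-rich level in every cell library. C1s was at 286.0 to 443.2 CPM in member cells and at 374.6 to 528.8 CPM in hepatocyte-rich cells. The part of hepatocyte RNA in these retinoid and complement values was not tested. Of 8 hepatocyte genes 7 were higher in cells (median 1.43), where Alb and Apoa1 also changed sign without it. These counts stand beside 29.0% and 33.8% of all genes.

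**Figure D5:**
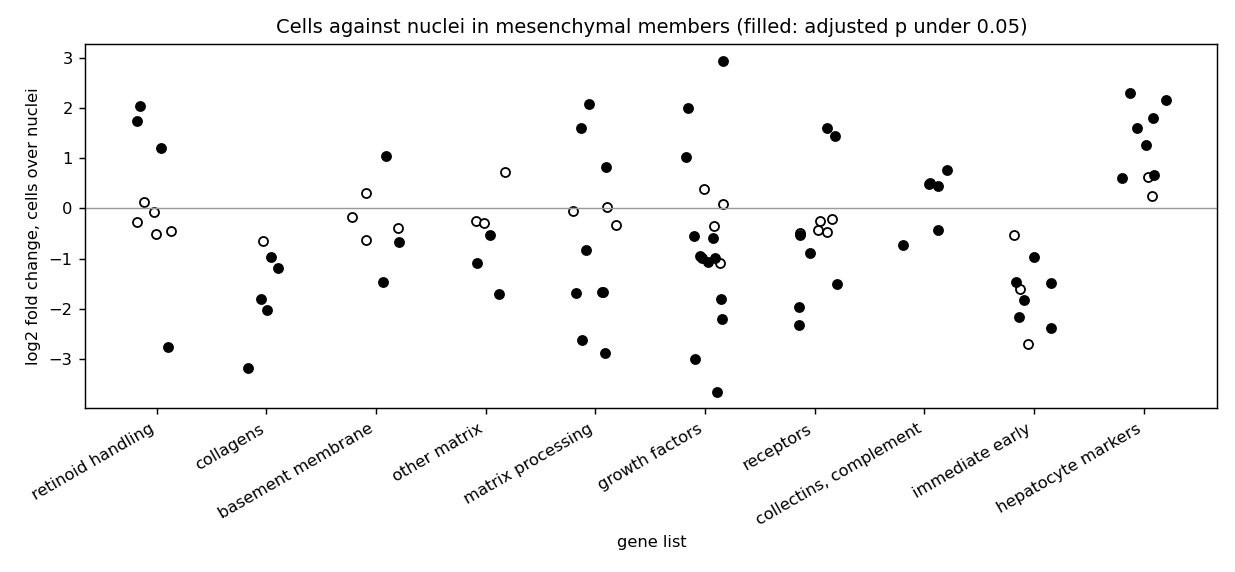
log2 fold of cells over nuclei for each tested gene of the role and marker lists, filled where the adjusted p was under 0.05, with horizontal jitter only for spacing. Collagen, growth factor and immediate-early genes lie mostly below 0 (medians -1.49, -0.94 and -1.61) and hepatocyte genes above it (median 1.43).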

How the data were processed

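The authors aligned reads with Cell Ranger (version 3.1.0 in the submitters' processing notes) and deposited the raw UMI count of each gene in each called barcode, without normalization. The TLH and immune-enriched matrices carry no gene names, and the gene list of the nuclei, equal in length, was applied to them by position. UMIs of members were summed per library, and CPM is the count relative to that sum. Sums were compared with the robust quasi-likelihood test of edgeR 4.0.16 (R 4.3.3, TMM, filterByExpr, Benjamini-Hochberg over all genes, 0.05), from which every adjusted p comes. DESeq2 1.42.0 was an alternative, and an adjusted p that it left NA stayed NA. Ratios to hepatocyte-rich barcodes used 3 counts where these had fewer. No doublet caller was run. The study flagged doublets without removing them, and alternatives left out members that carried endothelial genes (at least 0.2% of UMIs) or over 3 times the median depth. Those endothelial genes were Lyve1, Stab2, Fcgr2b, Ramp2, Fam167b, Clec4g, Gpr182 and Egfl7, whose own values fall by construction in that alternative.

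Genes named were, per strain comparison, the 10 largest folds in each direction among called genes with strains apart and at least 2 times the hepatocyte-rich level, the 5 largest of other called genes, called genes of the role and marker lists, genes the study names for these cells, and the 10 largest of cells against nuclei. The members and lists were chosen with earlier results of these data known. Promoters of up to 4 genes were chosen among those lower in LEW nuclei. Other alternatives were other size factors, no filter on low counts, a stricter rule of 10 marker UMIs and 0.4%, the stated barcode limits, the replicate number as a block and each library left out. Unscaled library sizes and a crossed block were added after the data were seen. Col1a2, Col6a3 and the Visium sections of Wistar rats were not analysed here, and some results are not reported here.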

Additional observations from a re-analysis of the deposited data

Results flagged for a closer look

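Several genes had a strain difference in members that differed from that in another kind of barcode. The difference of Fosb in cells minus that in nuclei was 5.0 on the log2 scale (edgeR interaction term, adjusted p = 0.00013). The other values are the log2 strain difference in members minus that in hepatocyte-rich barcodes, with its adjusted p from edgeR.

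In cells these were -3.96 for the probasin gene Pbsn (0.025), -2.90 for Bco1 (1.5e-09) and -0.72 for Cxcl12 (0.042). On the positive side they were 1.18 for Fcgr2b (0.007), 1.22 for Tspan7 (0.001), 1.38 for Lrg1 (0.0046), 1.51 for Ramp2 (0.021), 1.75 for the reticulon Rtn4 (0.021) and 9.42 for Hbb (3.3e-05).

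In nuclei they were -5.83 for Lox (0.00036), -5.53 for AABR07051450.1 (0.0014), -4.12 for Bco1 (2.7e-11) and -4.07 for Pdzrn3 (0.011). Ccn1 was at -2.72 (0.00036), Srf at -2.71 (0.00036), Egr1 at -2.20 (0.032) and the interferon-induced Ifit2 at -2.18 (0.038), and Serpinh1 was at 2.26 (0.0011). Of those not described above, the call of Ifit2 held under 3 of 11 alternatives, Rtn4 under 6 of 12, Pdzrn3 and AABR07051450.1 under 7 of 11 each and Pbsn under 9 of 12, and each was lost without at least 1 single library.

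Members were also present in libraries that entered no comparison. The rule found 34 barcodes in the immune-enriched library of DA and 53 in that of LEW.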

How the results depend on the processing

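The genes called lower and higher between strains numbered 54 in cells, 27 in nuclei and 131 over both. Leaving out 1 library gave 71 to 259 in cells (259 without DA-1, 114 without DA-2), 39 to 141 in nuclei (141 without DA-2, 73 without DA-1, 50 without LEW-1) and 90 to 157 over both, and 34 to 53, 22 to 25 and 81 to 120 of the calls were kept. Where this left 1 rat in a strain, that rat was taken to vary like the others. Other counts were 32 in cells with the DESeq2 test, 145 in cells and 115 in nuclei with no filter on low counts, 140 in cells at the stated barcode limits and 69 in nuclei with the stricter marker rule. Against hepatocyte-rich cells the count of 10 became 19 with DESeq2 size factors, 2 with the DESeq2 test, 21 with no filter, 4 without members that carried endothelial genes, 25 at the stated limits and 8 to 27 with 1 library left out. In nuclei the count of 9 became 2 with the DESeq2 test and 2 to 22 with 1 library left out (2 without DA-1, 4 without DA-2, 20 without LEW-1, 22 without LEW-2). The count of 1 for the difference between assays became 6 with no filter and 1 to 5 with 1 library left out. For cells against nuclei the count of 3304 became 3143 to 3509 with 1 library left out, and 2832 to 3105 of the 3304 calls were kept. The cause was not tested.

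With the replicate number as a replicate block the counts were 121 in cells, 33 in nuclei, 135 over both, 3 for the difference between assays and 2122 for cells against nuclei. Deviations of same-numbered rats correlated at -0.119 in cells and -0.0496 in nuclei, and the numbers were not taken to pair the strains within an assay. This check does not bear on whether a rat is shared between assays. A crossed replicate block in cells, added after the data were seen, gave 100.

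For cells minus nuclei, the sign turned without scaling in Tcf21 (-0.03), Cxcl12 (-0.58), C1r (-0.14), C1s (-0.17), Id3 (-0.58), Colec10 (-0.20), Apoa1 (-0.04), Pam (-0.20), Alb (-0.40), Tgfbi (-0.41), App (-0.50), Mmp2 (-0.61) and RT1-CE10 (-0.65). It turned for Fcgr2b (-0.32) without members that carried endothelial genes and for Krt18 (0.60), C3 (0.11) and Pam (-0.06) without the deepest members. Fcgr2b is itself one of the endothelial genes that picked the members left out. Of 18947 values of named genes under alternatives, 18082 kept their side of the threshold, 462 lost the call, 386 gained it and 17 turned. A turn, here and in the list above, was counted only where the gene was called in the main fit or the alternative. Values called in neither may have changed sign and stand among the 18082. The log2 difference in member share stayed between -0.78 and -0.60, with exact p of 0.111 to 0.222.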

Other observations

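The immune-enriched libraries, 1 rat per strain, had additional washes and depletion of red cells and were kept at 1000 UMIs and 50% mitochondrial UMIs. They held 34 members of 1163 barcodes in DA and 53 of 2677 in LEW, with no replicate and no test. The 8 hepatocyte genes took 0.0994% of member UMIs in DA and 0.877% in LEW, far below the TLH members. Ecm1 was at 4275 and 3972 CPM in DA and LEW, Col3a1 at 7735 and 4723 CPM and Lrat at 542 and 877 CPM. Of genes that differed between strains elsewhere, Fosb was at 78.9 and 0 CPM, Fos at 389 and 111 CPM, Ccn2 at 463 and 76.9 CPM and Clec2l at 99.9 and 8.5 CPM. Col1a1 was at 610 CPM in DA and 28.5 CPM in LEW and Igfbp6 at 1493 and 34.2 CPM. Fcgr2b was at 905 and 2039 CPM, and the endothelial list took 0.528% and 0.975% of UMIs. The 6 mesothelial genes took 0.164% of member UMIs in DA and 0.104% in LEW, against 0.0179% to 0.0218% in TLH members, and none of them was at 0. The median mitochondrial share of members was 28.3% in DA and 14.7% in LEW. The part of these other cell markers and of the mitochondrial share in the values was not tested.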
